A study of Mus musculus with 30 samples.

Results

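CD11b-positive cells isolated from the forebrain of mice without interleukin-34 (IL-34) signalling were compared with whole forebrain of the same animals. The comparison used 14 of the 30 sequenced libraries and 7 of the 15 mice: every animal that had lost IL-34, with its isolate library set against its forebrain library. 3 animals were Il34 knockout (KO) mice, 1 male and 2 female. The other 4 were wild-type mice given a blocking antibody against IL-34 (anti-IL34), 3 male and 1 female. The control animals, used here only where stated, were 4 Il34 heterozygotes (Het), which keep 1 intact copy of the gene, and 4 wild-type mice given anti-gp120. Every animal was perfused with saline. From each, a hemisphere was sequenced as bulk tissue, and cells of the other were captured on magnetic beads through CD11b before RNA was extracted. Age, antibody dose and time after injection are not given in the labels.

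IL-34 and CSF1 are the ligands of the receptor CSF1R, on which microglia depend for survival and for their mature expression program. In the forebrain IL-34 is made mainly by neurons, while CSF1 comes largely from glia. CD11b is carried by microglia, by macrophages of the brain's borders, and by monocytes and neutrophils of the blood, so beads against it can collect any of these. The comparison asks which genes mark the cells that are still recovered when IL-34 is missing.

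Libraries of these animals held 15064391 to 53816990 counts in forebrain and 17542132 to 49332553 in isolates. Levels are given as CPM, counts scaled to library size, with TMM factors over all 30 libraries, and differences between isolate and forebrain as log2 fold changes with their standard error (SE). The deposited gene lengths equal whole gene spans, introns included, and genes lying within another gene on the same strand were mostly near 0. Itgam, which encodes CD11b itself, reached at most 0.0479 CPM in these isolates and gives no check of the capture, and Irf8, Myd88 and Rpl13 were at 0 in all 30 libraries. These values were not read as absence. Among the controls, the anti-gp120 animal 15 stood apart, with an isolate mean of 8.82 log2 CPM over 13 astrocyte markers, the highest of the 8 controls. P-values measure the spread between these animals only. An isolate differs from forebrain both in the cells it holds and in having gone through the bead procedure, and these cannot be told apart. Nor can fewer cells of a type and less RNA per cell in either kind of library.

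Of 17954 genes tested in the 7 animals, 14837 (82.6%) passed edgeR's quasi-likelihood test with the animal as a block at an adjusted p of 0.05. The isolate was higher for 7660 of them (42.7% of the genes tested) and lower for 7177 (40.0%), and the median log2 fold change over all genes tested was 0.04. With library totals in place of TMM scaling more genes were lower (7962) than higher (6796), so the balance of directions depends on the scaling. By size, 1124 genes (6.26%) were higher by 3 or more on the log2 scale and 764 (4.26%) lower by as much. In a fit over all 30 libraries the contrast passed for 80.3% of 20634 genes in the 7 animals under loss and for 83.6% in the 8 control animals, so what follows describes microglial isolates under IL-34 loss and is not by itself particular to the loss.

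The cells that were recovered carried the expression of homeostatic microglia. All 22 genes of a list of such markers were higher in the isolate, 21 of them by 3 or more on the log2 scale, with a median of 5.43 (range 2.76 to 6.24) against 0.04 over all genes. Csf1r (chromosome 18: 61100598 to 61132149, GRCm38), the receptor for IL-34 and CSF1, measured 1302, 1374 and 1274 CPM in the isolates of KO animals 3, 6 and 24. In those of anti-IL34 animals 2, 10, 11 and 24 it measured 2389, 2054, 3065 and 2207 CPM. The paired forebrains held 17.1, 17.4 and 14.4 CPM in KO and 39.1, 32.8, 30.5 and 37.7 CPM in anti-IL34 animals. Every isolate lay far above every forebrain, the KO libraries were the lower ones in both tissues, and the log2 fold change was 6.24 ± 0.135 (SE, n = 7 animals, edgeR adjusted p = 6.62e-11).

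P2ry12, a purinergic receptor through which microglia sense ATP, ADP and injury, measured 435, 462 and 532 CPM in KO isolates and 433, 388, 659 and 400 CPM in anti-IL34 isolates. Its forebrain levels were 7.73 to 12.8 CPM, so the groups did not overlap (log2 fold change 5.47 ± 0.16, edgeR adjusted p = 3.03e-10). Tmem119, a membrane protein used to tell microglia from other brain macrophages, ran from 114 to 293 CPM in isolates and from 1.81 to 4.22 CPM in forebrain, a log2 fold change of 6.03. The fractalkine receptor gene Cx3cr1 was higher by 5.58. These levels were low against controls in both tissues: the mean over the 22 genes was 7.79 to 8.90 log2 CPM in the 7 isolates and 9.16 to 9.93 in the 8 control isolates. In forebrain it was 2.62 to 3.59 against 3.80 to 4.79, so in neither tissue did the loss and control libraries overlap.

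**Figure D1:**
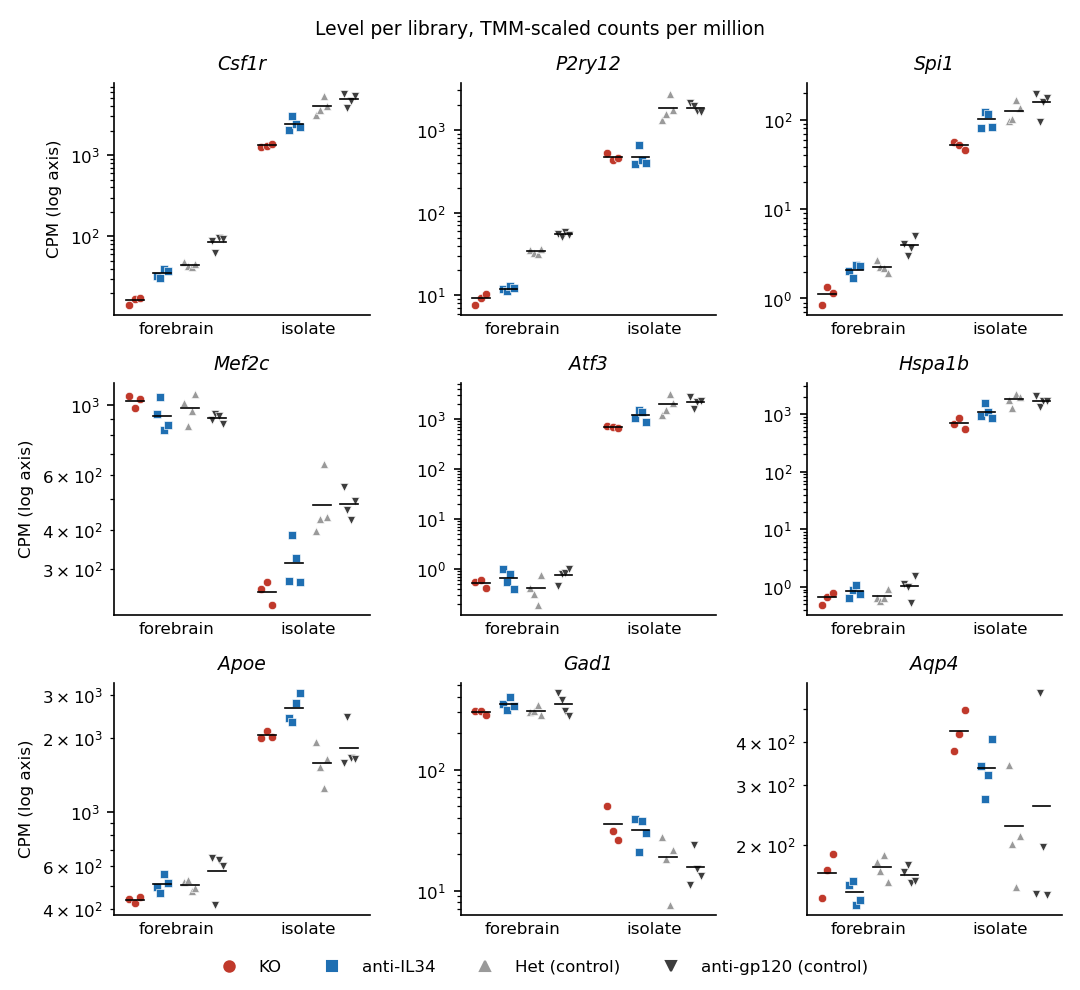
CPM (log axis) of 9 genes in each of the 30 libraries, by tissue and arm (KO red circles, anti-IL34 blue squares, Het grey triangles pointing up, anti-gp120 dark triangles pointing down), with the arm mean as a bar. Csf1r, P2ry12 and Spi1 were higher in every isolate than in any forebrain, Mef2c and Gad1 were lower, and P2ry12 under IL-34 loss lay below all controls in both tissues.

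Transcription factors that build microglial identity were also higher in the isolate, with 1 exception. Of 15 tested, 14 were higher and 1 lower, with a median log2 fold change of 3.55. Spi1, which encodes PU.1, the factor required for the myeloid lineage, measured 46.2 to 123 CPM in isolates and 0.854 to 2.35 CPM in forebrain (log2 fold change 5.57). Sall1, a repressor that holds microglia in their resting identity, measured 174, 184 and 154 CPM in KO isolates and 283, 188, 330 and 254 CPM in anti-IL34 isolates, against 14.8 to 31.8 CPM in forebrain (3.52).

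The exception was Mef2c, a factor that restrains microglial activation and is also a major factor of cortical neurons. It measured 231 to 385 CPM in isolates and 832 to 1070 CPM in forebrain, lower in the isolate of all 7 animals (log2 fold change -1.73 ± 0.101, edgeR adjusted p = 3.75e-08). Its relative Mef2a was higher by 0.82.

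In the CSF1R axis, 11 of 12 genes were higher in the isolate, with a median of 4.47. Csf1, the other ligand of the receptor, measured 95, 117 and 157 CPM in KO isolates and 350, 241, 356 and 211 CPM in anti-IL34 isolates, against 11.9 to 21.4 CPM in forebrain (3.67 ± 0.237). All KO isolates were below all anti-IL34 isolates, and all isolates were above all forebrains. Il34 itself (chromosome 8: 110741829 to 110805924) was the gene of this axis that was lower. In anti-IL34 animals its forebrain levels were 35, 36.8, 39.4 and 34.7 CPM and its isolate levels 16, 15.6, 19.2 and 16.8 CPM (log2 fold change -1.10, edgeR adjusted p = 1.81e-06). In KO animals the reads that remained over the gene gave 6.55, 7.52 and 8.31 CPM in forebrain and 7.05, 5.17 and 6.41 CPM in isolates, values that overlap (-0.22, adjusted p = 0.289). The KO forebrains were below all 8 control forebrains, which held 18.6 to 38.3 CPM.

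Immediate early genes are transcribed within minutes of a stimulus. Of 22 of them, 21 were higher in the isolate and Egr3 was lower (median 4.08). Atf3, a stress-induced transcription factor, measured 681, 645 and 711 CPM in KO isolates and 1365, 1046, 1541 and 870 CPM in anti-IL34 isolates, against 0.392 to 0.979 CPM in forebrain (10.60 ± 0.176, edgeR adjusted p = 3.27e-11). Zfp36, which destabilises cytokine mRNAs, was higher by 8.46, Jun by 5.01, Fos by 4.76 and Egr1 by 2.02. Rgs1, a brake on chemokine receptor signalling, ran from 67.3 to 289 CPM in isolates and from 0 to 0.0726 CPM in forebrain. Its fitted log2 fold change of 11.58 rests on forebrain libraries at or near 0.

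Of 18 cytokines and chemokines, 17 passed the low-count filter, and all of these were higher (median 8.18), against 42.7% of all genes tested. The list mean in forebrain was only -0.27 to 0.26 log2 CPM, so members could pass the filter through the isolates alone. The direction was thus partly fixed by the filter. The chemokine Ccl4 measured 60.2 to 198 CPM in isolates and 0 to 0.18 CPM in forebrain (10.60), and Ccl3 differed by 9.63. Il1a, the interleukin-1 form released by stressed microglia, measured 118 to 147 CPM in KO isolates and 245 to 449 CPM in anti-IL34 isolates, against 0.305 to 0.963 CPM in forebrain (8.93). The inflammasome sensor Nlrp3 was higher by 8.38, and the haem-degrading enzyme gene Hmox1 by 7.54.

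Heat-shock chaperones divided into a few very large differences and many small ones. Of 18 genes, 15 were higher, Chordc1 and Hspa4 were lower and Hsf1 did not pass, with a median of 1.25 and a range of -0.58 to 10.21. Hspa1b, an inducible HSP70 gene, measured 854, 544 and 662 CPM in KO isolates and 1094, 935, 1532 and 844 CPM in anti-IL34 isolates, against 0.494 to 1.08 CPM in forebrain (10.21 ± 0.162, edgeR adjusted p = 3.27e-11). Its neighbour Hspa1a differed by 9.19. Hspa8, the constitutive member of the family, differed by 0.97, and Hsph1, a co-chaperone of HSP70, by 1.29. The 250 bases upstream of Hspa1b and Hspa1a are printed because these 2 chaperones led the list. Capitals mark the heat-shock element, searched as GAANNTTC or TTCNNGAA, each of which is its own reverse complement, so both strands were covered. The 2 forms overlap each other where GAA and TTC blocks alternate. The windows are chr17:34959239-34959488 for Hspa1b and chr17:34972157-34972406 for Hspa1a, both on the minus strand and written 5′ to 3′ towards the gene (RefSeq, GRCm38.p6).
Hspa1b: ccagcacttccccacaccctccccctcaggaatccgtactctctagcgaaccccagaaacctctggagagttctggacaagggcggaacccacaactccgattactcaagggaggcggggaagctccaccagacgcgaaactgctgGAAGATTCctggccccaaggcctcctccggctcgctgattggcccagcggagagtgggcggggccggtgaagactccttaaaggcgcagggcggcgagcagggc
Hspa1a: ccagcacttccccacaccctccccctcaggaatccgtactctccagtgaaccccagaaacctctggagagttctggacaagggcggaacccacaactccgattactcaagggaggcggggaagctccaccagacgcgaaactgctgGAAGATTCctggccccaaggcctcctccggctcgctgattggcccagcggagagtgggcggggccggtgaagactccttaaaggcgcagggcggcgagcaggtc

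The match begins 104 bases before the start in each, and 247 of the 250 bases are the same. The 2 genes are near-identical copies, so their separate values are uncertain. Whether reads were split between them was not tested. The element was found upstream of 8 of the 13 chaperone genes matched in RefSeq (61.5%) and of 14.5% of all 27025 genes there. A gene was counted where any of its windows held a match. The element was also upstream of 7 of 16 homeostatic microglia genes (43.8%), 3 of 12 interferon genes (25.0%) and 3 of 18 immediate early genes (16.7%). A match describes these letters and is not a measured binding site.

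**Figure D2:**
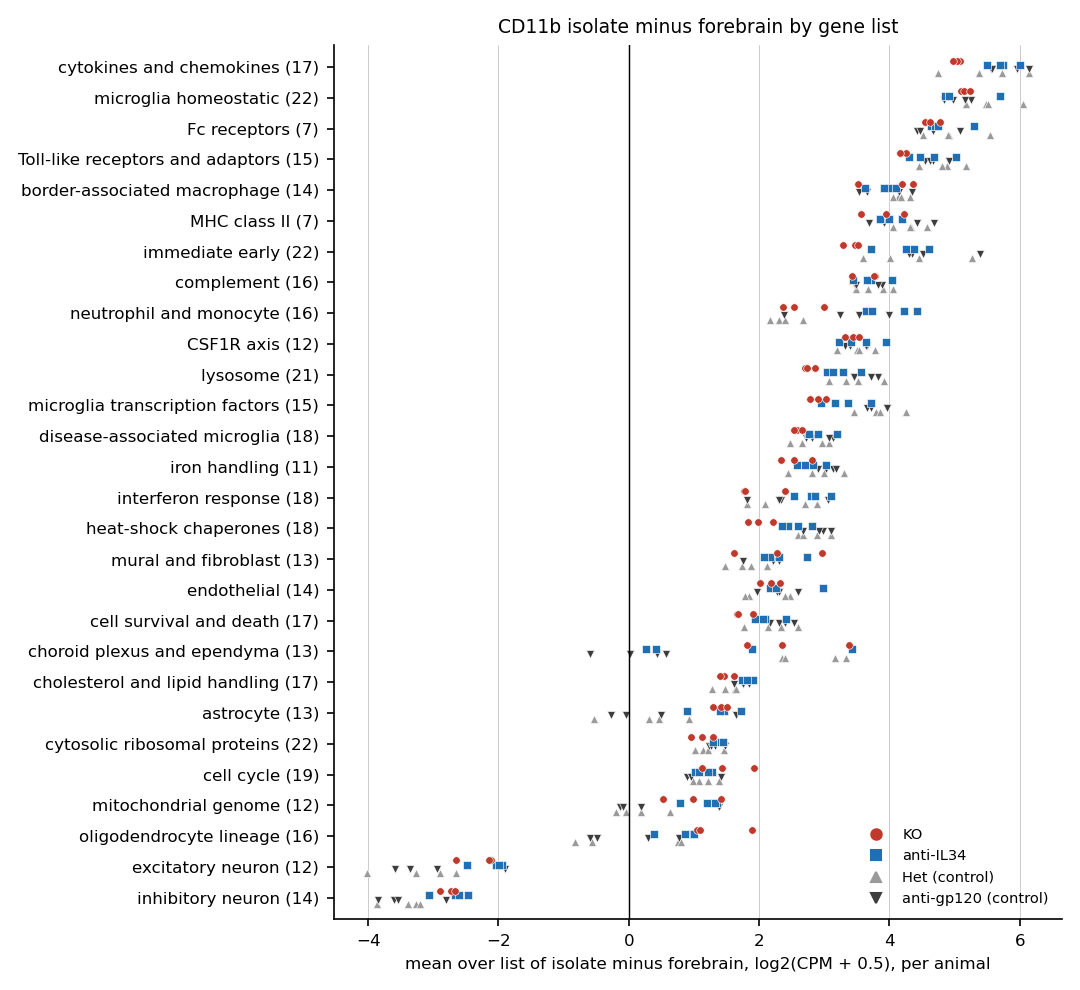
Mean over each gene list of the isolate minus forebrain difference in log2(CPM + 0.5), a point for each of the 15 animals (KO red circles, anti-IL34 blue squares, Het grey triangles pointing up, anti-gp120 dark triangles pointing down), with the number of genes in brackets. Over homeostatic genes the 7 animals under IL-34 loss lay at 4.86 to 5.69, within the control range of 4.83 to 6.05. Over inhibitory neuron genes they lay at -3.06 to -2.47.

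Genes named for disease-associated microglia, a state seen around plaques and in degeneration, were higher in the isolate for 17 of 18 members (median 2.67), and the change was very uneven. Clec7a, a pattern receptor, differed by 6.47 and the integrin gene Itgax by 5.53, but Lpl, a lipase, by only 0.23, a call lost without anti-IL34 animal 2, 10 or 11, without a filter on low counts and with library totals. Apoe, which carries lipid between cells, measured 2132, 2014 and 2008 CPM in KO isolates and 2780, 2420, 2318 and 3037 CPM in anti-IL34 isolates, against 423 to 559 CPM in forebrain (2.34 ± 0.0778). The KO isolates were all below the anti-IL34 isolates. Axl, a receptor for dying cells, followed the same order, at 130 to 154 CPM in KO and 191 to 312 CPM in anti-IL34 isolates, against 32.2 to 41 CPM in forebrain (2.50). Igf1, a growth factor that supports myelination, was the member that did not pass (0.14, adjusted p = 0.549).

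Lysosomal genes were higher for 20 of 21 members (median 2.82), with Gaa lower. The scavenger protein gene Cd68 differed by 5.05 and the cathepsins Ctsd, Ctsl and Ctsb by 3.6, 2.59 and 2.24. In iron handling 9 of 11 genes were higher and Tfrc and Ireb2 lower. In cholesterol and lipid handling 14 of 17 were higher and 1 was lower.

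Immune receptors were higher nearly throughout. All 7 genes of MHC class II antigen presentation were higher (median 6.20), as were all 15 Toll-like receptor genes and adaptors tested (5.35) and all 7 Fc receptor genes (5.52). In complement 15 of 16 were higher (4.5) and Cfp was lower. Cd74, the invariant chain of MHC class II, measured 119 to 168 CPM in KO isolates and 138 to 194 CPM in anti-IL34 isolates, against 1.68 to 2.22 CPM in forebrain (6.31 ± 0.108). H2-Aa differed by 6.57 and Tlr2, a receptor for bacterial lipoproteins, by 7.60. The KO and anti-IL34 isolates overlapped for Cd74.

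Markers of the other CD11b-positive cells were higher in the isolate too. All 14 genes of border-associated macrophages were higher, with a median of 5.32, close to that of the homeostatic list. Mrc1, the mannose receptor of these cells, measured 465, 479 and 223 CPM in KO isolates and 214, 292, 266 and 221 CPM in anti-IL34 isolates, against 4.03 to 8.23 CPM in forebrain (5.53 ± 0.173). The isolate of KO animal 24 lay with the anti-IL34 isolates, well below the other KO isolates. Cd163 and Lyve1, which mark perivascular and meningeal macrophages, differed by 4.95 and 4.92 and were likewise low in KO animal 24.

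Of 19 neutrophil and monocyte genes, 16 passed the low-count filter, and all of these were higher (median 6.28), against 42.7% of all genes tested. The list was near 0 in forebrain, so members could pass the filter through the isolates alone. Their direction was thus partly fixed by the filter and is no separate support. S100a8, a neutrophil calcium-binding protein, measured 13.6, 3.41 and 5.63 CPM in KO isolates and 128, 42.8, 82.1 and 35.9 CPM in anti-IL34 isolates, against 0.0296 to 1.26 CPM in forebrain (6.48). All anti-IL34 isolates were above all KO isolates, and control isolates spanned 4.25 to 73.9 CPM. S100a9 differed by 6.6, the monocyte chemokine receptor gene Ccr2 by 4.90 and Ly6c2 by 6.28, the last from forebrain libraries mostly at 0. Over the whole list the mean was 1.6 to 4.0 log2 CPM in isolates and -0.41 to 0.08 in forebrain. The part of blood cells in the immune genes above was not tested. Lymphocyte genes were scarce: 5 of 17 passed the filter, of which Trac, Cd79b and Ighm were higher and Cd4 and Trbc2 lower.

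Neuronal genes were lower in the isolate but still well detected. Of 12 excitatory neuron markers 11 were lower and Camk2a higher (median -2.26). Of 14 inhibitory neuron markers 12 were lower (median -2.97). Slc17a7, the vesicular glutamate transporter of cortical neurons, measured 266, 149 and 246 CPM in KO isolates and 391, 360, 208 and 365 CPM in anti-IL34 isolates, against 761 to 979 CPM in forebrain (-1.68 ± 0.16). Gad1, which makes GABA, differed by -3.30. Among the 15 genes with the largest falls, of those at 100 CPM or more in forebrain, were the neuronal noncoding RNAs Snhg11 (-7.55) and Meg3 (-6.11) and the opioid precursor gene Penk (-5.30). Camk2a, whose mRNA is carried into dendrites, was higher by 0.44, at 1684 to 4051 CPM in isolates against 2029 to 2369 CPM in forebrain.

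Markers of several glial and vascular cells were higher in the isolate than in forebrain, by less than the microglial ones. All 13 astrocyte genes were higher (median 1.45), among them Slc1a3, a glutamate transporter, by 1.52 and Aqp4, the water channel of astrocyte endfeet, by 1.31. Aqp4 measured 377 to 496 CPM in KO isolates and 273 to 409 CPM in anti-IL34 isolates, against 134 to 188 CPM in forebrain. Of 16 oligodendrocyte genes 14 were higher and Mog and Opalin did not pass (median 1.09). The myelin gene Mbp differed by 1.82. All 14 endothelial genes were higher (median 2.35), with the tight-junction gene Cldn5 at 2.44, and 12 of 13 mural and fibroblast genes were too (1.79), with Col1a1 at 1.79.

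Choroid plexus genes depended on the animal. Ttr, the transthyretin made by this epithelium, measured 1338, 2818 and 1076 CPM in KO isolates but 0.327, 2043, 549 and 19.8 CPM in anti-IL34 isolates, and the list's mean ranged from 0.98 to 5.62 log2 CPM. Mitochondrially encoded transcripts were higher for 11 of 12 genes (1.35), and mt-Co1, a cytochrome oxidase subunit, differed by 1.70. Of 22 cytosolic ribosomal protein genes 21 were higher (1.38). The part of these other cells in the results on microglial genes was not tested.

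Proliferation genes were higher in the isolate for 18 of 19 members, with Ccne1 lower (median 1.80). Mki67, present in all cycling cells, measured 75, 105 and 113 CPM in KO isolates and 32.3, 48.8, 46.2 and 36.8 CPM in anti-IL34 isolates, against 12.3 to 17.8 and 7.16 to 10.5 CPM in their forebrains (2.40 ± 0.134). KO libraries were above anti-IL34 libraries in both tissues without overlap, and Top2a, a topoisomerase of dividing cells, differed by 2.06. Of 17 survival and death genes 16 were higher, among them the anti-apoptotic Mcl1 (2.79), and Bcl2 did not pass (0.17, adjusted p = 0.0891).

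Deletion and antibody gave contrasts of the same direction for most genes. In KO animals 13926 of 18798 genes passed (74.1%) and in anti-IL34 animals 13767 of 17529 (78.5%). Over the 17465 genes tested in both fits, 12084 passed in both, which is 91.2% of the KO and 88.2% of the anti-IL34 calls among them. The direction was the same for 12050 of these and opposite for 34. The correlation of the fold changes across genes was 0.969 (Pearson's r, a description, since genes are not independent replicates and both contrasts share the difference between tissues). Csf1r differed by 6.39 in KO and 6.12 in anti-IL34 animals, and all 22 homeostatic genes were higher in each, with medians of 5.58 and 5.31, where 37.8% of genes tested were higher in KO and 40.8% in anti-IL34 animals.

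**Figure D3:**
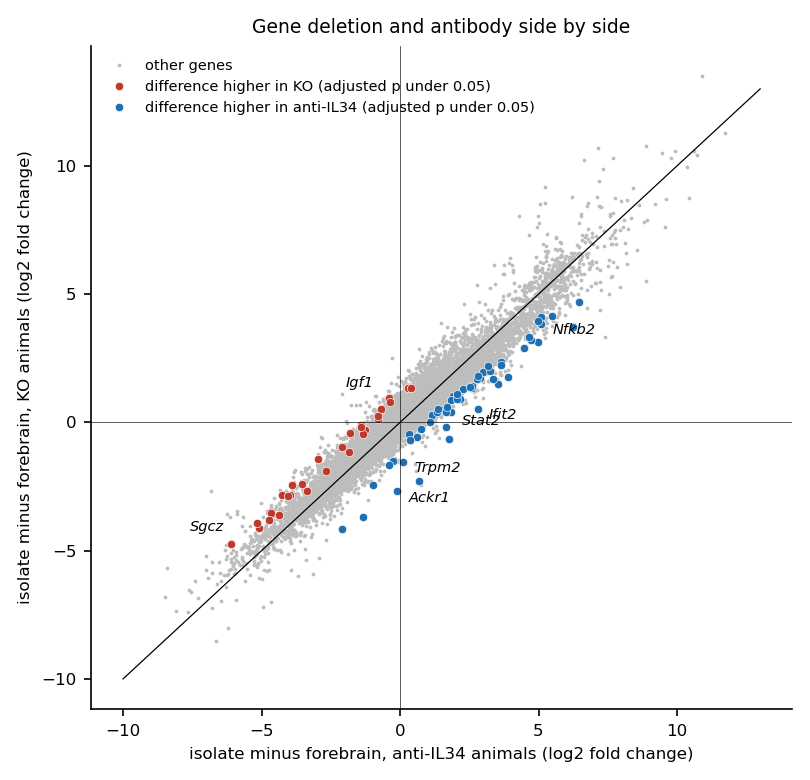
Log2 fold change of isolate over forebrain in the 3 KO animals (vertical axis) against the 4 anti-IL34 animals (horizontal axis) for each gene tested in both, with the line of equality. Genes whose difference between arms passed (edgeR adjusted p under 0.05) are red where higher in KO and blue where higher in anti-IL34. Most genes lie along the line, and Nfkb2, Ifit2, Stat2, Trpm2 and Ackr1 lie below it.

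The test of the difference between the 2 arms passed for 84 of 19259 genes (0.436%), 30 higher (0.156%) and 54 lower (0.28%) in KO, and this number is fragile. It was 0 when KO animal 3, KO animal 24, anti-IL34 animal 2 or anti-IL34 animal 11 was left out. Dropping KO animal 6 left 1 gene, dropping anti-IL34 animal 24 left 4, and dropping anti-IL34 animal 10 gave 234. DESeq2 called 1006 genes, including 82 of the 84, and edgeR put 3412 genes below 0.05 before adjustment. With library totals in place of TMM scaling the count was 441, of which 363 were higher and 78 lower in KO. In the 4 settings with a count of 0, edgeR gave 2617 to 3712 genes at an unadjusted p under 0.05, and DESeq2 was not run on them. With a tissue by sex term, added after the data were seen, the count was 208, including 80 of the 84. Deletion or antibody and the experiment cannot be told apart in this comparison.

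Among the genes that passed was Nfkb2, a subunit of noncanonical NF-kappaB, at 25.7, 25.5 and 37 CPM in KO isolates and 76.7, 59.1, 77.7 and 48.2 CPM in anti-IL34 isolates (difference -1.25 ± 0.178, edgeR adjusted p = 0.0284). Igf1 was higher in the isolate by 0.80 in KO animals and lower, at -0.38, in anti-IL34 animals (difference 1.18, adjusted p = 0.0361). The anti-IL34 value on its own lost its call without anti-IL34 animal 2 or 24 (adjusted p up to 0.0711) and with no animal block (0.0957), where the difference between arms was lost too (0.0780). It measured 48.6, 51.7 and 28.6 CPM in KO isolates and 23.3, 23, 20.9 and 13.5 CPM in anti-IL34 isolates, groups that did not overlap. Trpm2, a calcium channel opened by oxidative stress, measured 10.8, 10.6 and 12.7 CPM in KO isolates and 35.2, 25, 41.7 and 34.8 CPM in anti-IL34 isolates, at forebrain levels of 25.2 to 35 CPM (difference -1.64). Ackr1, an atypical chemokine receptor of venules and red cells, was at 6.17 to 8.27 CPM in KO isolates and 32.6 to 64.3 CPM in anti-IL34 isolates (-2.59). Abi3bp and Sgcz, both lower in the isolate, were less so in KO animals (differences of 1.44 and 1.38), although Abi3bp did not pass with no animal block (adjusted p = 0.152). None of the 22 homeostatic genes passed, nor any of the immediate early, heat-shock or lysosomal genes. Without anti-IL34 animal 10, 8 of 22 immediate early genes and 1 lysosomal gene passed as lower in KO. Those of the last 3 lists had median differences of -0.83, -0.60 and -0.51, towards lower in KO, against 0.00 over all genes.

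Interferon response genes were where the arms looked most unlike, although mostly in both tissues at once. All 18 were higher in the isolate over the 7 animals (median 2.59). Irf7, the factor that amplifies type I interferon, measured 2.56, 7.51 and 4.94 CPM in KO isolates and 135, 45.8, 84.7 and 105 CPM in anti-IL34 isolates. Forebrain followed, at 0.296 to 0.817 CPM in KO and 4.62 to 9.08 CPM in anti-IL34 animals, so the arms did not overlap in either tissue and the isolate to forebrain difference was 3.26 in KO and 3.80 in anti-IL34 animals, with a difference of -0.52 between arms (adjusted p = 0.329). Oasl2, an antiviral protein of the oligoadenylate synthetase family, was at 8.74 to 25.7 CPM in KO and 70.3 to 233 CPM in anti-IL34 isolates, against 1.48 to 3.58 and 21.6 to 53.8 CPM in forebrain, and its difference between arms did not pass either (0.43, adjusted p = 0.511). Isg15, the ubiquitin-like product of interferon, differed by 2.62 over all 7 animals. Over the list the mean was 5.0 to 6.45 log2 CPM in anti-IL34 isolates and 2.39 to 3.46 in KO isolates, while control isolates spanned 2.84 to 4.89. All 4 anti-IL34 animals lay above all 8 controls in isolate and in forebrain.

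**Figure D4:**
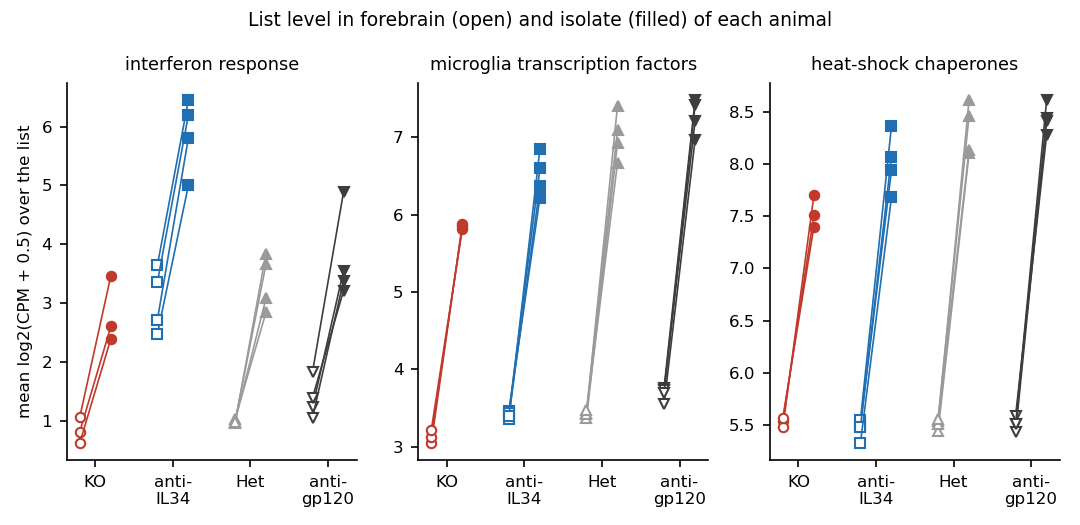
Mean log2(CPM + 0.5) over the interferon response, microglia transcription factor and heat-shock lists in forebrain (open symbols) and isolate (filled symbols), a line joining the 2 libraries of each animal, by arm. The anti-IL34 animals were above all others for interferon genes in both tissues, and the KO isolates were the lowest isolates for transcription factors.

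Ifit2 and Stat2 were the 2 interferon genes whose contrast differed by arm, and with no animal block neither passed (adjusted p = 0.0615 and 0.0719). Ifit2, which binds viral RNA, measured 10.7, 25.4 and 12 CPM in KO isolates and 238, 77.7, 136 and 232 CPM in anti-IL34 isolates. In forebrain it measured 11.2, 12 and 9.25 against 30.1, 16.5, 20.2 and 24.8 CPM. The isolates of KO animals 3 and 24 were near their forebrains, that of KO animal 6 was above its own, and the anti-IL34 isolates were further above theirs. The log2 fold changes were 0.53 (adjusted p = 0.0934) and 2.81 (5.33e-08), with a difference of -2.27 ± 0.296 (edgeR adjusted p = 0.0269). Stat2, a transcription factor of the interferon receptor, was at 27.5 to 39.6 CPM in KO and 69.5 to 170 CPM in anti-IL34 isolates (difference -1.43, adjusted p = 0.0284). The window before its start is shown because it holds the element bound by the interferon-activated STAT complex. Capitals mark the interferon-stimulated response element, searched as GAAA, any 2 bases and GAAA on both strands and here on the reverse strand, 222 bases before the start (chr10:128270248-128270497, plus strand, RefSeq GRCm38.p6).
Stat2: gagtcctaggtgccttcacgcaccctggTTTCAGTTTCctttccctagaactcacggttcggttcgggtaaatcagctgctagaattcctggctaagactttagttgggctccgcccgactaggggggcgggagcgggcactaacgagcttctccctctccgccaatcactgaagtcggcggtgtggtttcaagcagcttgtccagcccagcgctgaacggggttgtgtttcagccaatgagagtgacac

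The element was present upstream of 8 of the 12 interferon genes matched (66.7%) and of 3.46% of all 27025 genes. Neutrophil and monocyte markers moved with the same animals, with list means of 3.08 to 4.0 log2 CPM in anti-IL34 isolates and 1.6 to 2.29 in KO isolates. Their part in the interferon result was not tested.

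The remaining comparison asked where the isolate to forebrain difference under IL-34 loss departed from that in control animals. Over all 30 libraries this term passed for 6947 of 20634 genes (33.7%), 4048 higher (19.6%) and 2899 lower (14%) under loss, with a median of 0.11. The count lay between 5010 and 8135 when each animal was left out in turn. Within the experiments, KO less Het passed for 1236 genes (5.99%), 1.04% of those tested being higher and 4.95% lower. Anti-IL34 less anti-gp120 passed for 107 (0.519%), with 0.0678% higher and 0.451% lower. A value below 0 means that the isolate stood less far above its forebrain, or further below it, than in controls.

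For most homeostatic microglial genes no departure was detected. Of 22, none was higher and 4 were lower (Sall1, Sparc, Tgfbr1 and Slc2a5), with a median of 0.07. The experiments gave medians of opposite sign, -0.12 with 3 genes lower in KO less Het and 0.21 with none passing in anti-IL34 less anti-gp120, against 0.09 and 0.11 over all genes. The list's mean isolate minus forebrain difference was 5.1 to 5.24 in KO and 5.18 to 6.05 in Het animals, and 4.86 to 5.69 in anti-IL34 and 4.83 to 5.25 in anti-gp120 animals, with overlap in both pairs. Csf1r differed from controls by 0.07 ± 0.166 (adjusted p = 0.79) and P2ry12 by 0.08 ± 0.193 (adjusted p = 0.789), with both tissues below those of controls. P2ry12 in the control isolates ran from 1318 to 2753 CPM and in control forebrains from 31.9 to 59 CPM, all above the values under loss.

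In the isolate to forebrain difference, transcription factors departed from that pattern. Of 15, 11 were lower under loss and none higher, with a median of -0.81 against 0.11 over all genes. Between 11 and 12 passed whichever animal was left out. Within the experiments 8 were lower in KO less Het (median -0.97) and none passed in anti-IL34 less anti-gp120 (median -0.63). Mef2a differed by -1.0 ± 0.153 (edgeR adjusted p = 0.00109), Mef2c by -0.81 (0.00193) and Sall1 by -0.62 (0.0136). Mef2a was at 276 to 333 CPM in KO and 387 to 598 CPM in anti-IL34 isolates, while control isolates held 543 to 1099 CPM and all forebrains 218 to 240 CPM. All KO isolates and 3 of the 4 anti-IL34 isolates were below all controls, and the forebrains did not separate. Over the whole list the mean was 6.23 log2 CPM in isolates under loss and 7.15 in control isolates, with 3.29 and 3.56 in forebrain. The homeostatic list was at 8.21 and 9.57 in isolates and at 3.10 and 4.27 in forebrain, lower under loss in both tissues. Its median near 0 therefore does not mean that homeostatic levels were kept in the isolates.

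Lysosomal genes were lower under loss for 15 of 21 members and none was higher (median -0.51, and 11 to 18 of the 21 when an animal was left out). Their list mean was 8.32 log2 CPM in isolates under loss and 9.02 in control isolates, with 5.27 and 5.48 in forebrain. Ctsd, the main aspartyl protease of lysosomes, measured 262, 293 and 302 CPM in KO isolates and 474, 412, 545 and 420 CPM in anti-IL34 isolates, against 511 to 1093 CPM in control isolates (-0.99 ± 0.141, edgeR adjusted p = 0.000773). Ctsl and Ctsb differed by -0.83 and -0.67. Heat-shock chaperones were lower for 15 of 18 (median -0.62, 12 to 16 when an animal was left out), with Hsph1 at -1.01, Hspa1a at -1.0 and Hspa1b at -0.89. Cryab, a small heat-shock protein abundant in oligodendrocytes, was higher by 0.79. Of 22 immediate early genes 7 were lower, among them Jun (-0.89) and Atf3 (-1.29), and the count was 5 without anti-IL34 animal 10 and 14 without Het animal 1. Of 17 survival and death genes 8 were lower, including Mcl1 (-0.64), and Bcl2 was higher by 0.58. Only 3 were lower without KO animal 3, and 5 without KO animal 6, anti-IL34 animal 24, Het animal 21 or anti-gp120 animal 1 or 8. Within the experiments, KO less Het gave 9 lower lysosomal, 10 lower chaperone and 3 lower immediate early genes, with medians of -0.76, -0.84 and -1.03. Anti-IL34 less anti-gp120 gave none in these 3 lists, with medians of -0.39, -0.41 and -0.40.

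**Figure D5:**
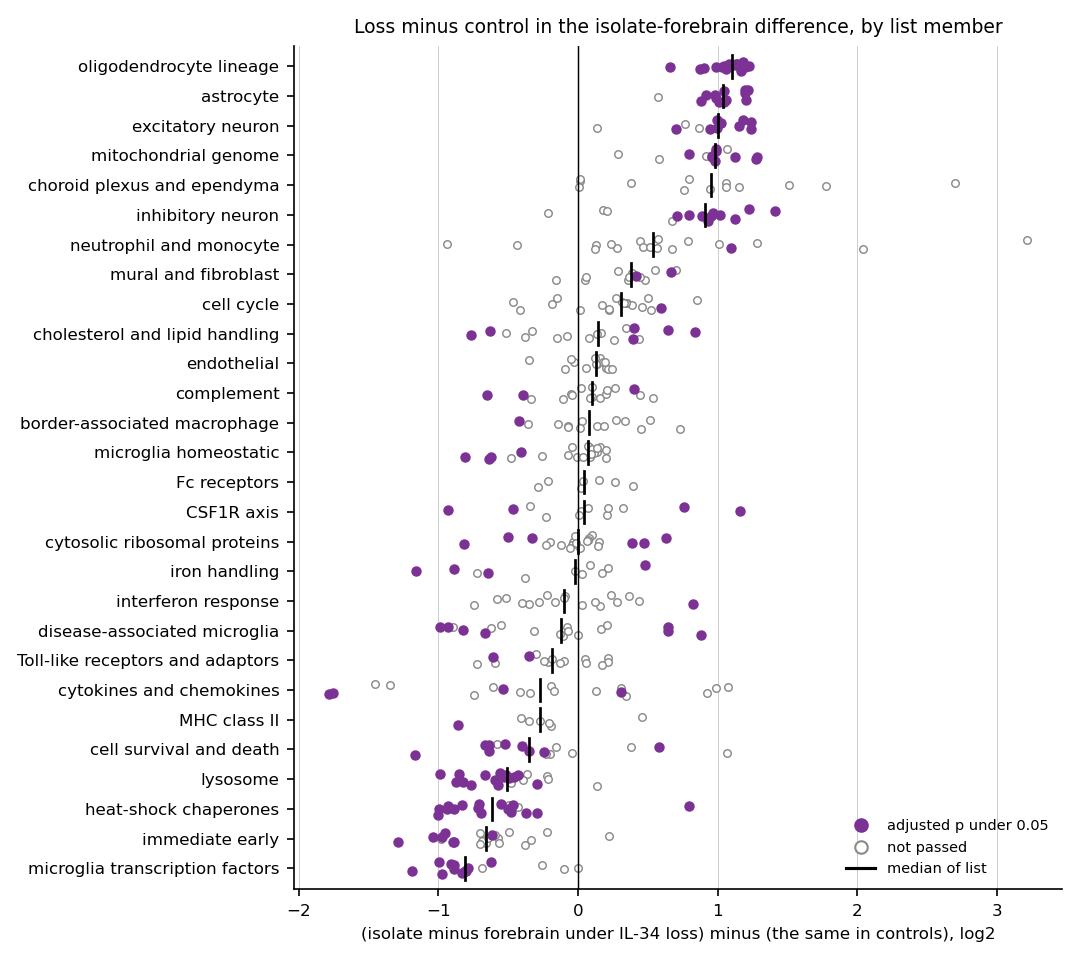
Loss minus control in the isolate to forebrain difference (log2, horizontal axis) for each gene of each list, filled where the edgeR adjusted p was under 0.05, with the list median as a black bar. The medians of the transcription factor (-0.81), immediate early (-0.66), heat-shock (-0.62) and lysosomal (-0.51) lists lie to the left of 0, with single genes such as Cryab to the right. The homeostatic median (0.07) lies near 0, and the astrocyte (1.04), oligodendrocyte (1.10) and excitatory and inhibitory neuron medians (1.00 and 0.91) lie to the right.

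Of 12 CSF1R axis genes 2 were higher and 2 lower under loss. Of 17 cholesterol and lipid handling genes 4 were higher and 2 lower. Of 11 iron handling genes 1 was higher and 3 lower. With an animal left out the lower counts ran from 1 to 3, 2 to 4 and 3 to 5, and the higher lipid count from 2 to 6. These counts were not read as results about the lists. Csf1 differed by -0.93 (edgeR adjusted p = 0.0147) and the chemokine Ccl2 by -1.78 (0.016), although Ccl2 forebrain levels were 0.14 CPM or less. Il34 differed by 0.76 (0.00934), or 1.23 in KO less Het and 0.29 in anti-IL34 less anti-gp120 (0.0183 and 0.439), with KO forebrain at about its own isolate level. Apoe (0.65), Axl (0.64) and the fatty-acid binding protein gene Fabp5 (0.88) were higher, and the iron exporter gene Slc40a1 was lower (-0.89). Axl was at 130 to 312 CPM in isolates under loss and at 106 to 148 CPM in control isolates, where the KO values overlapped controls and the anti-IL34 values did not. Over disease-associated microglia genes 3 were higher and 4 lower of 18 (median -0.12), near the shares over all genes and likewise not read as a result about the list. Of 18 interferon genes 1, Ifit2 (0.83, edgeR adjusted p = 0.0255), was higher (list median -0.10). Within the experiments Ifit2 differed by 1.78 in anti-IL34 less anti-gp120 (adjusted p = 0.0403) and by -0.13 in KO less Het (0.851), with list medians of 0.10 and -0.20, so the pooled value joins unlike experiments. The pooled call was lost without KO animal 6, anti-IL34 animal 24, Het animal 23 or anti-gp120 animal 7 or 8, and with no animal block (adjusted p up to 0.0998).

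Several genes with small p-values were lower under loss. Gpr165, an orphan receptor (chromosome X: 96713441 to 96719388), measured 25.4, 33.9 and 27.7 CPM in KO isolates and 25.7, 27.8, 36.3 and 31.9 CPM in anti-IL34 isolates. Control isolates held 88.7 to 123 CPM and forebrains of loss animals 5.96 to 11.3 CPM (-1.74 ± 0.166, edgeR adjusted p = 0.000128). Arsb, a lysosomal sulfatase, was at 256 to 320 CPM in isolates under loss and 560 to 839 CPM in control isolates (-1.07 ± 0.101, 0.000128). For these 2 genes KO and anti-IL34 isolates overlapped each other and neither overlapped controls. Slc25a37, the mitochondrial iron importer mitoferrin (-0.99), also separated loss from control isolates, at 32.9 to 51.2 against 68.1 to 90.9 CPM. Within the experiments, Gpr165 gave -1.70 in KO less Het and -1.78 in anti-IL34 less anti-gp120, and Arsb -0.99 and -1.16, all 4 past the threshold. Bid, a pro-apoptotic BH3 protein (-1.17), the amino acid transporter gene Slc7a8 (-1.25) and the VIP receptor gene Vipr1 (-1.32) were also among the 10 lower genes named for the smallest p-values. Trpm2 differed by -1.19. Med12l (-0.87) contains P2ry12 on its opposite strand. Strand use in counting is not stated, and whether reads of this pair are mixed was not tested. Of protein-coding genes inside another gene on the opposite strand only, 29.9% held at most 30 counts over all libraries. The share was 94.4% for genes inside another on the same strand and 21.0% for genes in no other gene. Among genes higher under loss were Sh3bgrl (0.54) and the RNA-binding protein gene Carhsp1 (0.79).

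Markers of other brain cells were higher in the isolates of animals under loss relative to controls. All 16 oligodendrocyte genes passed as higher (median 1.10), as did 12 of 13 astrocyte genes (1.04), 9 of 12 excitatory neuron genes (1.00), 10 of 14 inhibitory neuron genes (0.91) and 9 of 13 mitochondrially encoded genes (0.98). Mbp differed by 1.13, Gad1 by 1.02, Slc17a7 by 1.00, mt-Co1 by 0.98 and Aqp4 by 0.92. The Slc17a7 call was lost without KO animal 3 or 24, anti-IL34 animal 10 or 24, or anti-gp120 animal 1 or 8 (adjusted p up to 0.0723), and that of Aqp4 with no animal block (0.0516). None of the 14 endothelial genes passed in either direction (median 0.13). Within the experiments 1 oligodendrocyte gene passed in KO less Het and no other gene of these 5 lists in either, with medians of 0.78 to 1.34 in KO less Het and 0.85 to 1.01 in anti-IL34 less anti-gp120. Levels overlapped between groups: the astrocyte list mean was 8.10 to 8.96 log2 CPM in isolates under loss and 6.68 to 8.82 in control isolates. The anti-gp120 animal 15 gave the highest control value, and without it 13 of 13 astrocyte and 11 of 12 excitatory neuron genes passed as higher. Of the inhibitory neuron genes 5 passed without KO animal 3 and 6 without anti-gp120 animal 1. The part of these markers in the lower transcription factor, lysosomal and chaperone genes was not tested.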

How the data were processed

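RNA was sequenced from forebrain tissue and from CD11b bead isolates of 15 mice, 30 libraries in all. The deposited values are raw read counts per gene, made by the authors with STAR 2.7.5c, featureCounts 1.6.3 and R 4.4.0 against GRCm38, per the submitters' processing notes, which give no role or order for these tools. The deposited gene length equals the whole gene span for 51183 of 51498 genes matched to GENCODE M21. Of 446 protein-coding genes lying inside another gene on the same strand, 421 (94.4%) held at most 30 counts over all libraries. The share was 29.9% of 768 lying inside another gene on the opposite strand only and 21.0% of 20521 lying in no other gene. In the deposited count table, 6 columns of per-sample values match no sample listed here and were not used.

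The test of the counts was that of edgeR 4.0.16 (R 4.3.3, limma 3.58.1): TMM scaling, filterByExpr, a quasi-likelihood F test and Benjamini-Hochberg adjustment at 0.05, with the animal as a block. The SE is the log2 fold change divided by the root of F. The libraries of an animal come from the same mouse per the labels. Their deviations from group means correlated at a median of 0.166 (0.0596 to 0.252, above 0.1 in 6 of 7 animals under loss), against -0.0614 between different animals. Centring on small groups ties the second value to the first, so it is no separate comparison. Replicates differed by more than sampling noise (chi-square per degree of freedom of at least 5.48 over 18 pairs). Levels are CPM, and per-animal differences and list means use log2(CPM + 0.5). Alternatives were DESeq2 1.42.0, RLE scaling, no filter, no block, each animal left out, a test against a 2-fold change and a sex term. Library totals without TMM, and the sex term for KO against anti-IL34, were added after the data were seen. On simulated counts the test recovered 96 of 98 genes changed by 1 on the log2 scale and 94 of 94 changed by 2 for the 7 animals (17821 genes, 18 false calls). For loss against control it recovered 66 of 100 and 91 of 96 (19917 genes, 6 false calls). In these simulated counts few genes were changed, both tissues otherwise shared the same means, and the dispersion was fixed. The wide tissue differences and the spread between isolates of the real data were not represented. The simulation therefore gives no recovery or error rate for the real comparisons.

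The genes named are members of 31 gene lists, Il34, Csf1 and Csf1r, and picks made by rule among genes past the threshold with 1 sign in every animal. The picks are the 10 with the smallest p in each direction of each fit and, for the 7 animals, the 15 with the largest fold change at 100 CPM or more. Members and lists were chosen with earlier results of these data known. Some genes picked by this rule are not reported here. Promoters are RefSeq's. Tables and plots used Python 3.11.15, pandas 2.3.3, numpy 2.4.6 and matplotlib 3.10.9.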

Additional observations from a re-analysis of the deposited data

Results flagged for a closer look

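A single animal lay far from the other 6 in the isolate minus forebrain difference of log2(CPM + 0.5) for 4 of 68 genes examined, with a gap over range of at least 0.568. Chance alone gives about 1 in 20. Apoe was 2.56 in anti-IL34 animal 24 (others 2.17 to 2.33), and Clec7a 6.32 in anti-IL34 animal 11 (5.21 to 5.60). KO animal 24 was high for Mki67, at 3.14 (2.09 to 2.52). Snhg11 was -6.72 in KO animal 3 (-7.83 to -7.35).

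The isolate to forebrain difference itself differed between KO and anti-IL34 animals, by edgeR's test of that difference, for Ifit2 (-2.27), Stat2 (-1.43), Ackr1 (-2.59), Trpm2 (-1.64) and Nfkb2 (-1.25), all lower in KO. Igf1 (1.18), Abi3bp (1.44) and Sgcz (1.38) were higher in KO. With each of the 7 animals left out in turn, Igf1, Stat2, Trpm2 and Nfkb2 passed in 1 of 7 fits, and Ifit2, Ackr1, Abi3bp and Sgcz in 2 of 7.

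It also differed between animals under IL-34 loss and controls. Lower under loss were the transcription factors Sall1 (-0.62), Mef2c (-0.81) and Mef2a (-1.0), and the ligand Csf1 (-0.93). So were the stress genes Atf3 (-1.29), Jun (-0.89), Hspa1a (-1.0), Hspa1b (-0.89) and Hsph1 (-1.01), and the cathepsins Ctsl (-0.83), Ctsb (-0.67) and Ctsd (-0.99). The others lower were Mcl1 (-0.64), Trpm2 (-1.19), Ccl2 (-1.78), Arsb (-1.07), Slc25a37 (-0.99), Gpr165 (-1.74), Bid (-1.17), Slc7a8 (-1.25), Vipr1 (-1.32), Med12l (-0.87) and Slc40a1 (-0.89).

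Higher under loss were Il34 (0.76), Apoe (0.65), Axl (0.64), Fabp5 (0.88), Bcl2 (0.58), Cryab (0.79), Sh3bgrl (0.54) and Carhsp1 (0.79). Ifit2 was higher in the pooled comparison (0.83), with 1.78 in anti-IL34 less anti-gp120 but -0.13 in KO less Het. Among markers of other cells these were Slc17a7 (1.00), Gad1 (1.02), Aqp4 (0.92), Mbp (1.13) and mt-Co1 (0.98).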

How the results depend on the processing

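For the 7 animals under loss, 6857 genes passed a test against a 2-fold change in place of any change, and the other alternatives gave 14171 to 16898. Library totals without TMM moved the median of that comparison by -0.14. The KO and anti-IL34 contrasts and the loss minus control count stayed within 1.5 times of their values under every alternative run. The number of genes whose contrast differed between KO and anti-IL34 did not: it was 1006 with DESeq2, 998 without a filter on low counts, 441 with library totals, 208 with a tissue by sex term and 0 to 234 with an animal left out. With no animal block, arm and sex standing in for the pairing of libraries, it was 287, of which 67 were among the 84. The cause was not tested.

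Differences near 0 changed sign. Csf1r in loss minus control ran from -0.02 to 0.15 with an animal left out, and P2ry12 from -0.03 to 0.20. Igf1 over the 7 animals was -0.01 with library totals and ran from -0.02 to 0.26 with an animal left out. Of 840 values of 40 genes named for loss minus control, 818 kept direction and side of the threshold and 17 lost the call, and of 156 values of 12 genes named for KO minus anti-IL34, 48 lost it. The others lost once each were Atf3 (adjusted p = 0.0503) and Ccl2 (0.109) without anti-IL34 animal 10, Hspa1b (0.0511) without KO animal 6 and Mcl1 (0.0543) without KO animal 3. Depth limits genes near 0 in forebrain, such as Rgs1 and Ccl2.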

Other observations

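Among the 34 genes that passed in both KO and anti-IL34 animals with opposite signs, Prok2, which encodes the secreted peptide prokineticin 2, differed between isolate and forebrain by -2.45 in KO animals and by 0.77 in anti-IL34 animals on the log2 scale. Cmpk2, an interferon-induced kinase of nucleotide metabolism, gave -0.50 and 0.62, and Mov10, an antiviral RNA helicase, -0.51 and 0.61. Mef2d, a relative of Mef2c, gave -0.25 and 0.47. The lysosomal proton pump genes Atp6v0b and Atp6v0d1 gave -0.26 and -0.39 in KO against 0.43 and 0.35 in anti-IL34 animals. These genes were chosen after their values were seen.

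In loss minus control, where 19.6% of all genes passed as higher, 1 of 7 erythroid genes did (median 1.04) and 1 of 19 cell cycle genes, Rrm2 (median 0.31). With an animal left out these counts ran from 0 to 2 and from 0 to 3, the 3 being without KO animal 3.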
